A study of Mus musculus with 2 samples.

Results

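The 9 genes of the Sonic hedgehog (Shh) signalling pathway described here were measured in whole midbrain dissected from mice at embryonic day 15.5. They are the ligand gene Shh, the receptor genes Ptch1 and Hhip, the signal transducer gene Smo, the co-receptor genes Boc and Cdon, and the transcription factor genes Gli1, Gli2 and Gli3. They were chosen by name, and all 9 were found by Ensembl identifier among the 43346 Ensembl genes of each table, with 34 transcripts listed for them. The embryos were healthy, of both sexes and of the C57BL/6 substrain B6NCrl, and no treatment or genetic change is given in the labels. The series held 1 group of 2 biological replicates, and each was a pool of many embryos (78 in replicate 1 and 62 in replicate 2). It therefore allows genes to be compared within this tissue and 1 pool to be compared with the other. Each pool gave 1 total RNA library, so the spread between the libraries joins the difference between pools with that between library preparations.

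Hedgehog ligands act through a chain of inhibitions. Without ligand, Ptch1 keeps Smo inactive and Gli3, with part of Gli2, is cut to a repressor form in the primary cilium. Ligand bound to Ptch1 together with the co-receptors Boc, Cdon or Gas1 frees Smo, and full-length Gli proteins then switch on targets that include Gli1, Ptch1 and Hhip. In the ventral midbrain Shh is known as the floor plate signal that patterns progenitors, among them those of dopaminergic neurons.

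The libraries held 38966386 expected counts in replicate 1 and 40419493 in replicate 2. Midbrain markers were present, with 4 of 5 at 1 TPM (a share of all transcripts, corrected for their length) or more in both libraries. Their summed level went from 152.4 TPM in replicate 1 to 138.6 TPM in replicate 2. Of 7 floor plate markers 6 reached that level in both libraries, as did all 7 radial glia markers, and no marker of the 14 lists was at 0 in either library. Genes known from other tissues differed between the pools. Of 8 skin epidermis markers 5 were at least 2-fold higher in replicate 2, and the list summed to 16.2 and 35.5 TPM. The epidermal keratin gene Krt5 had 0.08 TPM in replicate 1 and 4.72 TPM in replicate 2. All 3 liver markers were at least 2-fold lower in replicate 2, where their sum was 0.36 TPM against 14.9 TPM in replicate 1. The plasma protein gene Afp had 7.09 TPM in replicate 1 and 0.19 TPM in replicate 2. Of 3 hindbrain noradrenergic markers 2 were at least 2-fold lower in replicate 2 (sums of 7.04 and 1.90 TPM), with the noradrenaline transporter gene Slc6a2 at 2.85 and 0.72 TPM. Among 7 hypothalamic and diencephalic markers (78.5 and 101.4 TPM) Sim1 was at least 2-fold higher in replicate 2 (0.84 and 1.84 TPM). Six6, named after its values were seen, was at least 2-fold lower. Avp and Six3, also named after their values were seen, were the highest of this list. Avp had 44.8 TPM in replicate 1 and 66.4 TPM in replicate 2, and Six3 had 25.0 and 24.6 TPM. For Avp the ratio of replicate 2 to replicate 1 was 1.48, short of 2-fold. The part of these tissues in the values below was not tested. In whole tissue, fewer cells of a type and less RNA per cell cannot be told apart.

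The pathway genes were expressed at modest levels. A gene was called expressed at 1 TPM or more in both libraries, and 8 of the 9 were. Their median level was 4.15 TPM, against 17.0 TPM over the 15347 Ensembl genes expressed in this tissue. With all counts of a gene divided by its longest listed transcript, an alternative chosen after seeing the data, the median of the 9 was 2.28 TPM. Boc, Smo and Ptch1 led, Gli3 followed, and Gli1 and Shh were lowest.

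The ligand gene Shh (chr5:28456815-28467256, minus strand, mm10) had 0.84 TPM in replicate 1 and 1.20 TPM in replicate 2, a mean of 1.02 ± 0.255 (SD, n = 2). These levels rest on 50.9 and 74.8 expected counts, the fewest among the 9 genes. The deposited bounds of the 2 values, whose confidence level is not given in the sources used here, overlapped (0.596 to 1.07 and 0.908 to 1.45 TPM). Shh is the 1 gene that missed the threshold, through replicate 1. On the opposite strand it overlaps the antisense gene 9530036O11Rik, with 8 and 2.11 counts, and the long non-coding RNA gene Gm26894, with 11.1 and 12.1 counts. Whether the counting used strand is not given in the sources used here. The posterior SD was 2.02 and 1.69 counts for Shh, 1.93 and 1.63 for Gm26894, and 0.59 and 0.48 for 9530036O11Rik. How many reads these genes exchanged was not tested. The posterior SD of the Shh count was 4.01% of its mean in replicate 1 and 2.27% in replicate 2, and at most 0.308% for each of the other 8 genes.

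Ptch1, the receptor that binds Shh and restrains Smo, stood at 9.39 TPM in replicate 1 and 8.70 TPM in replicate 2 (9.05 ± 0.488, n = 2). It lies on chr13:63508328-63573598 on the minus strand. Both libraries were close to each other. Its level exceeded that of its ligand 11.2-fold in replicate 1 and 7.25-fold in replicate 2. Hhip, a membrane protein that binds hedgehog ligands and removes them from signalling, was lower, at 2.78 and 2.85 TPM (2.82 ± 0.0495, n = 2; chr8:79965851-80058006, minus strand). The libraries nearly coincided for this gene as well. Ptch1 exceeded Hhip 3.38-fold and 3.05-fold in the same 2 libraries.

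Smo, the transmembrane protein that carries the signal into the cell, reached 10.9 TPM in replicate 1 and 9.00 TPM in replicate 2 (9.94 ± 1.33, n = 2; chr6:29735503-29761365, plus strand). Its TPM was near that of Ptch1, with a Ptch1 to Smo ratio of 0.863 in replicate 1 and 0.967 in replicate 2. Boc, a cell surface co-receptor of the immunoglobulin superfamily, was the highest of the 9 genes by its mean. It had 13.0 TPM in replicate 1 and 9.61 TPM in replicate 2 (11.3 ± 2.43, n = 2; chr16:44485049-44558897, minus strand). Replicate 2 of Boc fell below replicate 1 of Smo, so the ranges of these neighbours overlap. Cdon, the co-receptor most like Boc, had 5.02 and 3.28 TPM (4.15 ± 1.23, n = 2; chr9:35421128-35507652, plus strand). Boc thus exceeded Cdon 2.60-fold in replicate 1 and 2.93-fold in replicate 2.

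**Figure D1:**
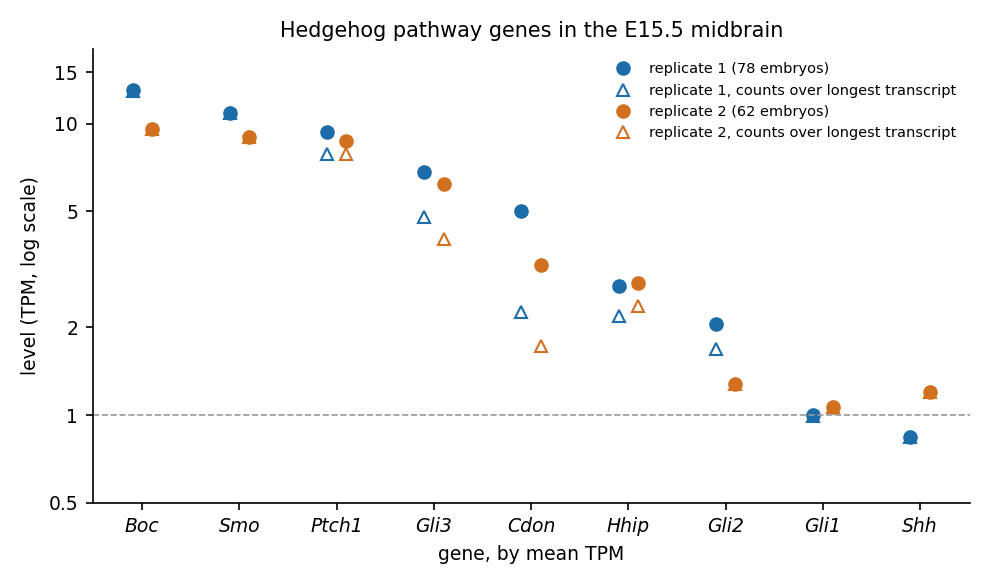
Level of each of the 9 genes in TPM on a log axis, in order of the mean, with 1 filled circle per library and open triangles for all counts of the gene divided by its longest listed transcript; the dashed line marks 1 TPM. Boc, Smo and Ptch1 lie between 8.70 and 13.0 TPM, Shh and Gli1 near 1 TPM, and the triangles fall furthest below the circles for Cdon.

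Among the transcription factors Gli3 dominated. Gli3, the main repressor of the pathway, had 6.82 TPM in replicate 1 and 6.23 TPM in replicate 2 (6.53 ± 0.417, n = 2; chr13:15463235-15730026, plus strand). Gli2, the main activator, had 2.06 and 1.28 TPM (1.67 ± 0.552, n = 2; chr1:118834132-119053619, minus strand). Gli1, an activator that is itself switched on by the pathway, had 1.00 and 1.07 TPM (1.04 ± 0.0495, n = 2; chr10:127329882-127341974, minus strand). In both libraries the order was Gli3, Gli2, Gli1. Of the summed TPM of the 3 genes Gli3 took 69.0% in replicate 1 and 72.6% in replicate 2 (70.8% ± 2.53, n = 2). Gli2 took 17.9% ± 4.19 and Gli1 11.3% ± 1.66. Gli3 exceeded Gli1 6.82-fold in replicate 1 and 5.82-fold in replicate 2, and Gli2 3.31-fold and 4.87-fold. For Gli2 the deposited bounds (2.32 to 4.17 TPM in replicate 1 and 1.58 to 3.12 TPM in replicate 2) lay above the TPM itself. They belong to the posterior mean, which was 3.19 and 2.28 TPM, so the level of Gli2 depends on which of the authors' estimates is taken. With posterior means the share of Gli3 was 64.1% and that of Gli2 26.0%.

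The 3 Gli genes are paralogs, and their coding sequences are most alike where they encode the zinc fingers that bind DNA. A search of the translated GENCODE M21 coding sequences for the C2H2 spacing of cysteines and histidines found 5 such fingers in each gene, over 453 coding bases. Over these bases Gli2 and Gli3 were 80.8% identical, Gli1 and Gli2 81.5%, and Gli1 and Gli3 75.9%. The coding bases of the last finger are shown because they show how far the 3 transcripts differ even there. Capitals mark the 12 of 72 positions at which not all 3 genes carry the same base, and 10 of these are the third base of a codon. The stretches lie at chr13:15720067-15720138 (plus strand), chr1:118842114-118842185 (minus strand) and chr10:127333715-127333786 (minus strand) on GRCm38, written 5′ to 3′ along the transcript.
Gli3: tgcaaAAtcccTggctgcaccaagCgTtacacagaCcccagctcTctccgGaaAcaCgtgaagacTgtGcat
Gli2: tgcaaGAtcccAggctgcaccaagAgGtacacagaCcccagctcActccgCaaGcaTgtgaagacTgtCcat
Gli1: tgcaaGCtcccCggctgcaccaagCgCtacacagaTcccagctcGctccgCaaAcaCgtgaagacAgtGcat
Over whole leading transcripts the longest run of identical bases was 25 for Gli2 and Gli3, 23 for Gli1 and Gli2, and 14 for Gli1 and Gli3. The authors' posterior SD of the gene count was 0 for Gli1 and Gli2 and at most 0.159% of the mean for Gli3. The shares of the 3 factors thus rest on reads that were assigned to 1 gene with little spread. On the opposite strand the end of Gli1 overlaps Arhgap9, with 28 and 32 counts against 83 and 92 for Gli1. The posterior SD of Arhgap9 was 0, as for Gli1. The start of Gli3 overlaps the non-coding Gm6556, also on the opposite strand, with 21.5 and 27.2 counts against 898.5 and 783.8 for Gli3. Gm6556 and Gli3 had the same posterior SD (1.37 and 1.25 counts), so some reads were divided between genes on opposite strands.

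In the order of mean TPM (Boc, Smo, Ptch1, Gli3, Cdon, Hhip, Gli2, Gli1, Shh) 7 of 8 neighbouring pairs were separated. Separated means that the log2(TPM + 1) difference, taken within each library, had the same sign in both and a mean above its SD. The pair Gli1 and Shh was not: Gli1 was higher in replicate 1 (difference 0.12) and Shh in replicate 2 (difference -0.09). The narrowest separated pair was Smo and Ptch1, with 0.19 in replicate 1 and 0.04 in replicate 2. With 2 libraries an exact sign-flip test cannot give a two-sided p below 0.5, so the order is a description. Order and separation were taken from the same 2 libraries, so positive mean differences were largely built in.

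Levels per length depend on which transcripts are counted, and for Cdon this changed its place. When all counts of a gene were divided by its longest listed transcript, Cdon fell from 4.15 to 1.99 TPM (2.25 in replicate 1 and 1.72 in replicate 2), 2.09-fold lower, and stood below Hhip at 2.28 TPM. Hhip and Cdon were then not separated. Gli3 moved from 6.53 to 4.40 TPM by the same step and Ptch1 from 9.05 to 7.87 TPM, while Boc, Smo, Gli1 and Shh moved by less than 0.1 TPM each. The ratio of Boc to Cdon rose to 5.77 in replicate 1 and 5.55 in replicate 2.

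The transcript tables gave a second readout. Shh, Smo and Gli1 had 1 listed transcript each, and the other 6 genes had between 2 and 9. Of the 34 listed transcripts 11 had 0 counts in both libraries. The leading transcript, the one with the highest mean share of its gene's TPM, was the same in both libraries for 6 of 6 genes. Over all expressed genes with more than 1 listed transcript it was the same in 9448 of 10301, or 91.7%.

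Most Ptch1 RNA was assigned to a transcript that lacks the first coding exon of the full-length form. Ptch1-202 took 71.9% of the gene's TPM in replicate 1 and 77.2% in replicate 2 (74.6% ± 3.80, n = 2). Ptch1-204, annotated as a target of nonsense-mediated decay, took 11.0% and 14.2% (12.6% ± 2.24). Ptch1-201, the form with the longest coding sequence of the 3, took 5.88% and 5.92% (5.90% ± 0.0283). The order of the 3 was the same in both libraries. Each starts from its own first exon. On GRCm38 (minus strand) exon 1 of Ptch1-202 is chr13:63564458-63564535, that of Ptch1-201 is chr13:63565362-63565735, and that of Ptch1-204 is chr13:63573092-63573460. All 3 then join the same exon 2, chr13:63563623-63563815.

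The first 60 coding bases of the 3 transcripts are printed because they show what the choice of first exon does to the coding sequence. Capitals mark bases that lie in exon 1, and the sequences run 5′ to 3′ from the annotated start codon (GENCODE M21, minus strand of chromosome 13).
Ptch1-202: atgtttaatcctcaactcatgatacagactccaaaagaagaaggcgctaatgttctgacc
Ptch1-201: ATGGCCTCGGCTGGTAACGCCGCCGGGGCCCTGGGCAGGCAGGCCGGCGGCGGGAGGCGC
Ptch1-204: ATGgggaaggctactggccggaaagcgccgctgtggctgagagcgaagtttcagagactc
In Ptch1-201 the coding sequence opens in exon 1, with 159 coding bases there, and has 1434 codons. In Ptch1-204 only the start codon lies in exon 1, exon 2 follows at once, and the annotated reading frame ends after 581 codons. In Ptch1-202 no coding base lies in exon 1. Its annotated start codon is in exon 3, 16.4 kb downstream of the transcript start, and it has 1297 codons. All 3891 coding bases of Ptch1-202 are also coding in Ptch1-201, which has 411 more.

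The transcripts also differ at the other end. Beyond the stop codon Ptch1-202 has an intron of 419 bases that lies inside the last exon of both Ptch1-201 and Ptch1-204. Ptch1-202 shares 21 exons with Ptch1-201 exactly, of 24 and 23. The split between these 2 therefore rests on reads over the first exons and this intron, and reads elsewhere fit both. Reads over this intron do not show where coding starts. Reads across exon junctions were not available to check the split. The counts assigned were 1088 and 1119 for Ptch1-202 with posterior SDs of 50.1 and 48.0. For Ptch1-201 they were 98.3 and 94.8 with posterior SDs of 38.3 and 32.0. From posterior means the share of Ptch1-202 was 68.4% ± 3.52.

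**Figure D2:**
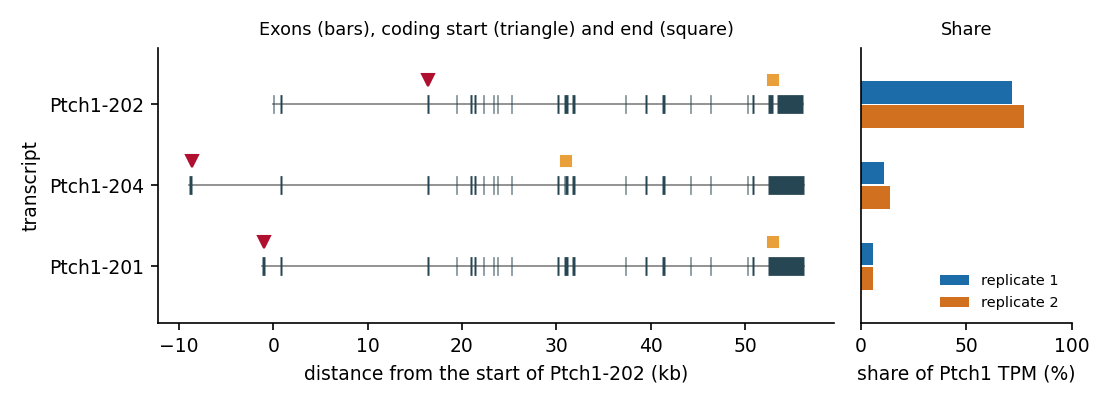
Left, exons of 3 Ptch1 transcripts (bars) by distance in kb from the start of Ptch1-202, with triangles at the annotated coding starts and squares at the coding ends; right, the share of Ptch1 TPM in each library. Ptch1-202, whose coding start lies 16.4 kb downstream of its own first base, holds 71.9% and 77.2%.

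Gli3 was divided among 3 transcripts. Gli3-201, the full-length form, took 58.4% in replicate 1 and 50.8% in replicate 2 (54.6% ± 5.38, n = 2). Gli3-202, whose annotated coding sequence has no end, took 26.8% and 29.8%, and the retained-intron transcript Gli3-203 took 14.8% and 19.4%. Gli3-201 holds all 453 bases of the zinc finger region, Gli3-202 holds 346 and Gli3-203 holds 54. In expected counts Gli3-201 led by more (83.6% and 78.6% of the gene's counts), because it is 8170 bases long against 2004 for Gli3-202.

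Cdon divided most differently by TPM and by counts. By TPM Cdon-206, a partial transcript of 2222 bases, led with 38.6% in replicate 1 and 54.4% in replicate 2. The full-length Cdon-202 took 31.4% and 36.2% by TPM but held 271 and 211 counts, or 70.1% and 68.8% of the gene's counts, against 96.1 and 91.2 counts for Cdon-206. The short Cdon-205 (652 bases) took 21.1% of the TPM from 13.7 counts in replicate 1 and was at 0 in replicate 2. The Cdon level above thus rests partly on short transcripts with few counts.

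Hhip-201, which encodes the protein, took 74.2% and 79.7% of Hhip TPM, and the rest was the non-coding Hhip-202. Gli2-201 took 77.5% in replicate 1 and 100% in replicate 2, where the partial Gli2-206 had 21.6% in replicate 1. From posterior means Gli2-201 took 46.9% and 52.6%, so that share depends on the estimate. For Boc a transcript absent from GENCODE M21, and so without a name here, took 100% and 90.1%, and Boc-201 took 0% and 9.87%.

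**Figure D3:**
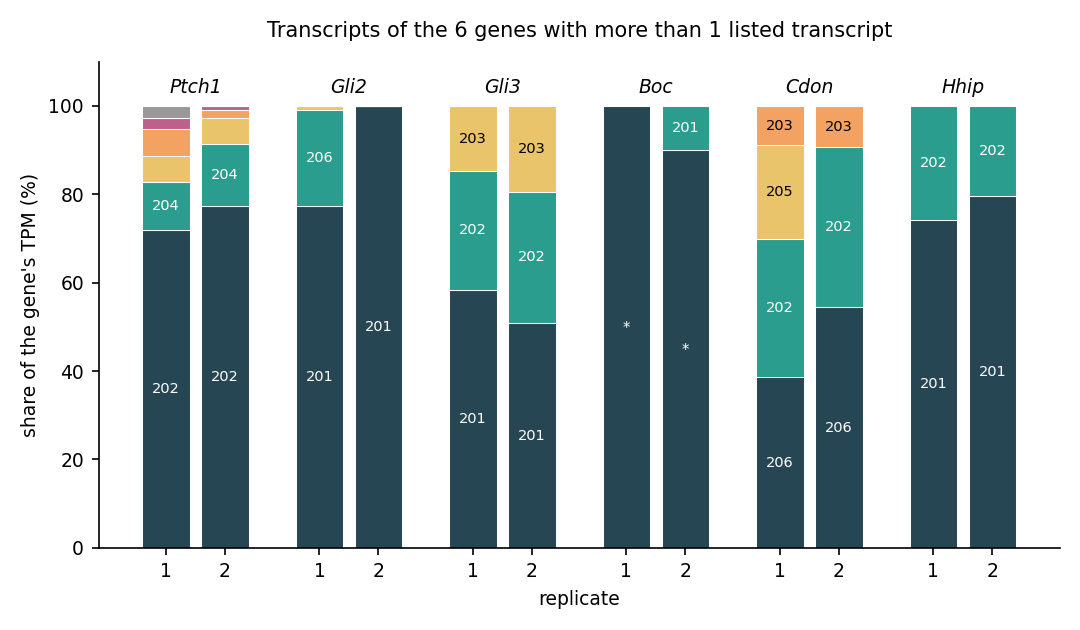
Share of each gene's TPM (%) taken by its transcripts in the 2 libraries, for the 6 genes with more than 1 listed transcript; numbers in the bars are GENCODE transcript suffixes, shown above 8%, and the star is a Boc transcript absent from M21. The lowest segment leads in both libraries for all 6 genes, from 38.6% for Cdon-206 to 100% for Boc and Gli2-201.

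Between the pools no pathway gene differed by 2-fold, and 5 were slightly lower in replicate 2. The comparison used a two-sided exact binomial test on rounded expected counts with TMM library sizes, adjusted by Benjamini-Hochberg over 18269 genes. It compares 2 libraries, not conditions, and takes counting noise alone as error. With both an adjusted p under 0.05 and a 2-fold difference required, 0 of 9 pathway genes and 298 of all genes tested (1.63%) were called. By edgeR's exact test, with a common dispersion estimated from the differences between the 2 libraries over all genes, it was again 0 of 9, and 158 of all genes (0.865%).

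By adjusted p alone 5 of 9 genes were lower in replicate 2, where 9.96% of all genes tested were. None was higher, where 9.38% of all genes were. Among the 8049 genes with mean counts in the range of these 9 (63 to 1425) 9.57% were lower. The same 5 had an unadjusted p under 0.05. Boc had 1319 counts in replicate 1 and 1004 in replicate 2 and was 1.36-fold lower in replicate 2 (95% interval 1.25 to 1.47, exact binomial adjusted p = 2.03e-11). Gli2 was 1.32-fold lower (258 and 202 counts, interval 1.09 to 1.59, exact binomial adjusted p = 0.0219). Cdon was 1.31-fold lower (387 and 306 counts, 1.12 to 1.52, exact binomial adjusted p = 0.00518). Smo was 1.21-fold lower (935 and 799 counts, 1.10 to 1.33) and Gli3 1.18-fold lower (898 and 784 counts, 1.07 to 1.30), with exact binomial adjusted p = 0.00115 and 0.00594. Both co-receptors, the transducer and 2 of the 3 Gli factors were thus in this set. Under edgeR with the common dispersion (a biological coefficient of variation of 0.0650) none of the 5 passed by adjusted p alone, where 0.832% of all genes were lower, and the lowest adjusted p was 0.146, for Boc.

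The other 4 genes are the ligand and the 3 genes that the pathway is known to switch on. Ptch1 had 1401 and 1449 counts and a ratio of replicate 2 to replicate 1 of 1.00 (95% interval 0.931 to 1.08). Hhip had a ratio of 1.09 (0.907 to 1.31) and Gli1 of 1.07 (0.790 to 1.46). Shh had 51 and 75 counts and a ratio of 1.43 (0.985 to 2.08, exact binomial adjusted p = 0.165). The intervals of Gli1 and Shh both hold ratios above 1.36, the size of the Boc difference, in the upward direction. That of Gli1 also holds the lower ratios of Smo (0.828) and Gli3 (0.846), so its counts do not set it apart from these genes. The ratios of Boc, Gli2 and Cdon lie below the Gli1 interval. Whether these 4 genes differ from the other 5 was not tested. The 9 genes had a median log2 ratio of -0.24, against 0.00 over all genes tested. Their median size of change was 0.27 on the log2 scale, against 0.11 over all genes and 0.12 over genes in the same range of counts.

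**Figure D4:**
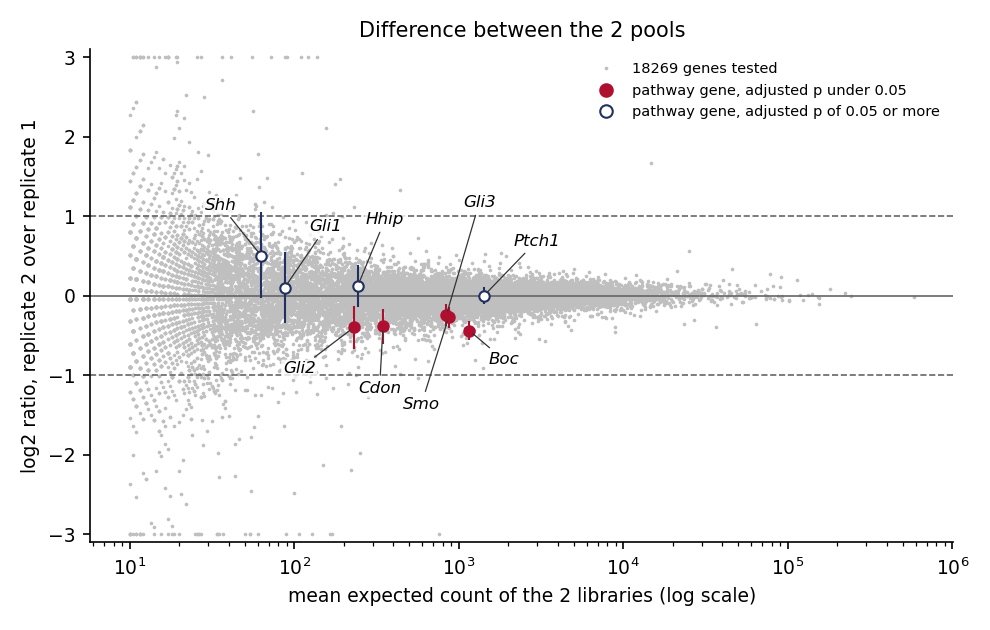
Log2 ratio of replicate 2 over replicate 1 against the mean expected count (log axis) for 18269 genes, with values beyond 3 drawn at 3; the 9 pathway genes carry 95% intervals of counting error and dashed lines mark 2-fold. Red points are the 5 genes with an adjusted p under 0.05, all below 0 and above the lower 2-fold line.

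Markers of several cell types also differed between the pools, in both directions, by adjusted p of the exact binomial test. By that measure 9.96% of all genes tested were lower in replicate 2 and 9.38% higher. The test takes counting noise alone as error, so small differences pass at high counts, as for Vim at a ratio of 0.922. Under edgeR with the common dispersion no marker in this paragraph passed. Of 7 radial glia markers 4 were lower in replicate 2 by adjusted p alone, none by 2-fold, and the list summed to 1601 TPM in replicate 1 and 1517 TPM in replicate 2. Of 5 midbrain markers 3 were lower, and of 7 floor plate markers 2 were higher (sums of 67.7 and 78.2 TPM). Of 5 markers of meninges and fibroblasts 3 were lower (sums of 261.7 and 230.9 TPM), and of 4 microglia markers 3 were lower (104.2 and 81.8 TPM). Of 5 mural cell markers 1 was lower and 1 higher (198.5 and 156.6 TPM), of 4 endothelial markers 1 was lower (156.1 and 132.5 TPM), and of 4 choroid plexus markers 1 was higher (262.9 and 293.3 TPM). No oligodendrocyte precursor marker passed (91.2 and 88.4 TPM). Their part in the differences of the pathway genes was not tested.

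A list of 38 further pathway genes gives the setting, and 35 of them were expressed. Of the 37 tested 0 were called at 2-fold by the exact binomial test and by edgeR. By adjusted p alone 5 were higher and 7 lower in replicate 2, where 9.38% of all genes tested were higher and 9.96% lower. The median log2 ratio of the list was -0.01. The other 2 hedgehog ligand genes were both under 1 TPM. Ihh, the ligand of growth cartilage, was at 0.09 TPM in each library, and Dhh, known from Schwann cells and testis, at 0.79 and 0.46 TPM. Shh was the highest of the 3 ligand genes in both libraries, in replicate 1 by 0.84 against 0.79 TPM.

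All 6 genes of ligand processing and release were expressed. The highest was Disp2 with 57.1 ± 5.03 TPM (n = 2), a relative of the ligand exporter Disp1, and the lowest Scube2 with 1.59 ± 0.283 TPM, a secreted carrier of the ligand. Disp2 was 1.11-fold higher in replicate 2 (95% interval 1.07 to 1.14, exact binomial adjusted p = 1.0e-08). Of the 4 receptors and binding proteins 3 were expressed. Gpc3, a glypican that binds hedgehog ligands, was the highest of these with 51.7 ± 3.84 TPM. Lrp2, an endocytic receptor for Shh, was lowest with 1.01 and 0.93 TPM. All 10 cilium and Smo regulators were expressed, from Mgrn1, a ubiquitin ligase acting on Smo, with 91.9 ± 4.36 TPM, to Evc, a ciliary partner of Smo, with 3.30 ± 0.382 TPM. In this group 2 genes were lower by adjusted p alone and none higher, and the median log2 ratio was -0.02.

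The 9 regulators of Gli proteins were the most abundant group, with a median of 135.1 TPM. Csnk1a1, a casein kinase that marks Gli proteins for processing, stood at 198.7 ± 1.29 TPM, and Kif7, a ciliary kinesin that acts on Gli proteins, at 1.37 ± 0.410 TPM. Most of this group are kinases and ubiquitin adaptors used by other pathways as well. In the group 2 genes were higher and 2 lower in replicate 2 by adjusted p alone. Kif7 had 1.66 TPM in replicate 1 and 1.08 TPM in replicate 2 and was 1.53-fold lower (174 and 117 counts, 95% interval 1.21 to 1.96, exact binomial adjusted p = 0.00351). Among 7 other targets in ventral progenitors Mycn, a growth-promoting transcription factor, was highest with 50.1 ± 4.19 TPM. Nkx6-1, a homeodomain factor of ventral progenitors, was lowest with 1.89 ± 0.354 TPM. Mycn was 1.13-fold lower in replicate 2 (1.07 to 1.18), and the values of Nkx6-1 (100 and 79 counts) did not pass.

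Gas1 and Nkx2-2 are named after their values were seen. Gas1, the co-receptor that acts beside Boc and Cdon, had 19.0 TPM in replicate 1 and 12.3 TPM in replicate 2. It was 1.54-fold lower in replicate 2 (1270 and 851 counts, 95% interval 1.41 to 1.68, exact binomial adjusted p = 1.44e-20). It was the only gene of the 38 that also passed under edgeR with the common dispersion (adjusted p = 0.00353), without reaching 2-fold. Under that fit Boc (adjusted p = 0.146) and Cdon (adjusted p = 0.550) did not pass. Nkx2-2, a ventral homeodomain factor, was 1.5-fold higher in replicate 2 (189 and 292 counts, 1.24 to 1.81).

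**Figure D5:**
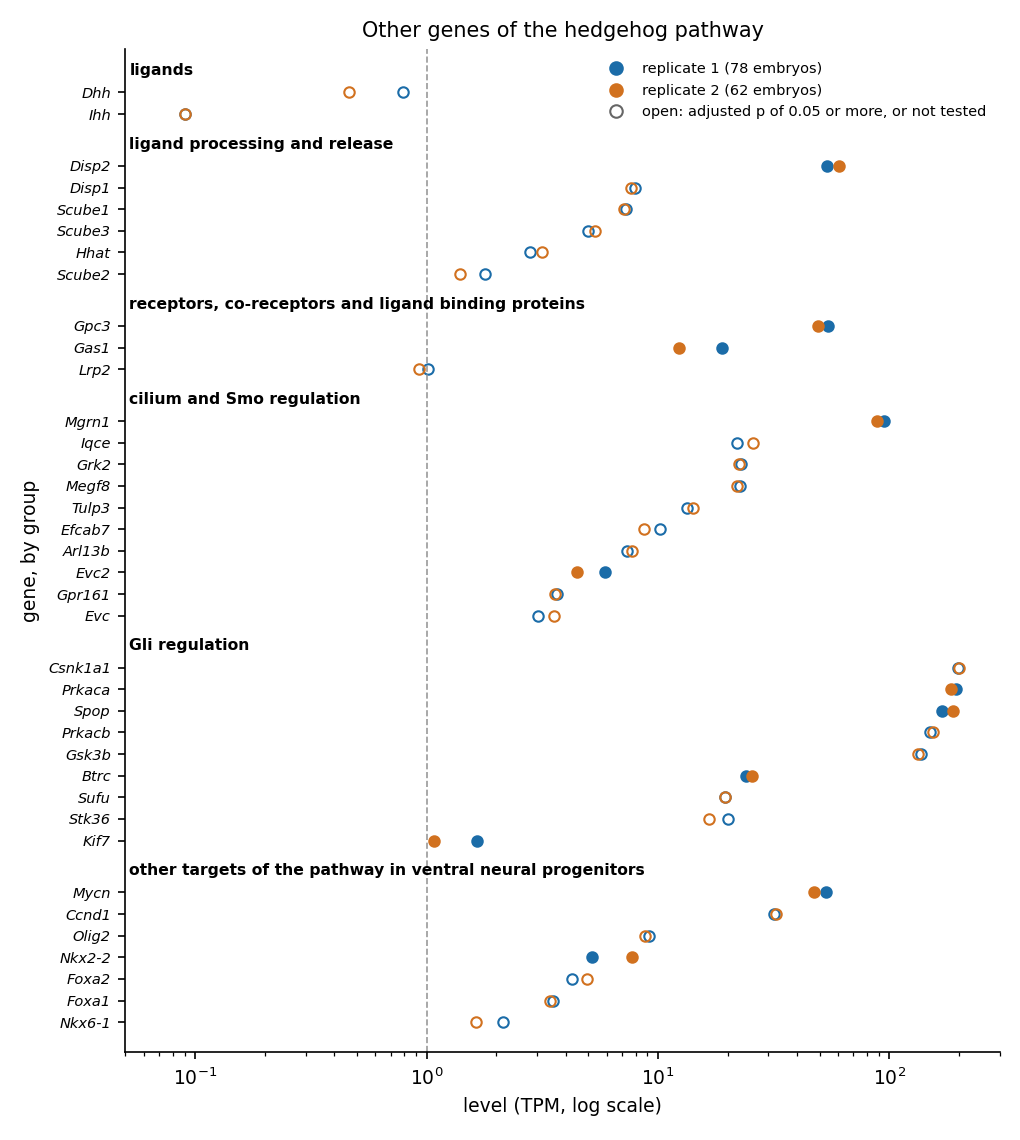
Levels in TPM (log axis) of 37 of the 38 further pathway genes by group, with 1 circle per library; filled circles are genes with an adjusted p under 0.05 between the pools and the dashed line marks 1 TPM. Ihh, Dhh and Lrp2 are the 3 genes with a circle left of the line, and Gas1 and Nkx2-2 show wide gaps between the libraries.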

How the data were processed

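The authors deposited 1 gene table and 1 table of transcripts per library, which per the file headers hold expected counts, TPM, posterior means and SDs with bounds, and the percent of its gene's TPM that each transcript takes. The authors' notes name mm10 and GENCODE M4; the aligner, the counting tool and whether strand was used are not given in the labels or files used here. TPM is used as deposited, scaled over all rows, spike-ins included (2.30% and 2.42% of counts). Names, coordinates, biotypes and sequences came from GENCODE M21 on the same build, whose transcript ends can differ from M4. Rows without an Ensembl identifier stayed out of library sizes and tests.

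Expected counts were rounded, genes averaging 10 counts or more tested by a two-sided exact binomial test (scipy 1.17.1) with TMM sizes from edgeR 4.0.16, and p-values adjusted by Benjamini-Hochberg over 18269 genes; the procedure was tested on simulated data. A log2 ratio used 0.5 added to each count, a level difference log2(TPM + 1). Intervals cover counting error only, with no term for variation between pools or library preparations. PCR copies could not be told apart. Alternatives were DESeq2, total or spike-in scaling, other count filters, posterior means, edgeR with a common dispersion, other TPM thresholds, a pseudocount of 0.1, longest transcript lengths and leaving out a library. All 9 genes are named; of the 38 further genes the highest and lowest of each group and those under 1 TPM or called (1 is not reported here); of each marker list the called gene with most counts. Genes and lists were chosen with earlier results of these data known.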

Additional observations from a re-analysis of the deposited data

How the results depend on the processing

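Of 197 values recomputed under the alternatives 167 were classed as unchanged, and for many of them the design fixed this. With 2 libraries, leaving 1 out always moves a mean by less than the SD. Other count filters, no fold threshold and edgeR leave a log2 ratio as it was. Counts of genes have no spread, and 366 genes called without a count filter, against 298, were also classed as unchanged. The number 167 is therefore no measure of stability. The log2 ratio of Ptch1, at 0.0032 and not past the threshold, turned to -0.083 with spike-in scaling and -0.0023 with total counts, and Cdon fell below Hhip over longest transcripts. The median level of the 9 genes was 2.28 TPM over longest transcripts against 4.15 TPM, and 3.28 to 5.02 TPM with 1 library left out. The share of Gli3 among the Gli factors was 64.1% from posterior means and 63.5% over longest transcripts, and 69.0% to 72.6% without 1 library. The median share of the leading transcripts was 75.8%, and 60.3% from posterior means. Genes called between the pools numbered 298, 67 with a mean of 50 or more counts, 3534 with no fold threshold and 158 by edgeR with a common dispersion. With no fold threshold 5 of the 9 genes and 12 of the 37 further genes tested passed, where 3534 of all 18269 genes tested did. The 5 genes passed under each other scaling and filter, and none under edgeR with the common dispersion. Of the 9 genes 7 were expressed by posterior mean TPM, 9 at 0.5 TPM and 6 at 2 TPM. Neighbouring pairs separated numbered 5 from posterior means and 6 over longest transcripts. Spike-in scaling moved the median log2 ratio of all genes by -0.09. The 5 genes were already below 0, so a move in this direction could not reverse them. The cause of these changes was not tested, apart from the filters, which change how many genes are tested. With 51 and 75 counts, depth limits Shh most. No paired analysis was possible because the series holds 1 group.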
